A study of Mus with 12 samples.

Results

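The comparison described here asks how liver tumours given antibodies against both CTLA4 and PDL1 differed from those given the antibody against CTLA4 alone. It sets the 3 tumours titled Anti PDL1+CTLA4, called the combination below, against the 3 tumours titled Anti CTLA4, which are 6 of the 12 libraries of the series, over all 770 genes of the mouse IO360 panel. Every mouse carried a MYC-HCC, a mouse model of hepatocellular carcinoma named for the oncogene Myc, and the groups differed by the antibody given. The other 6 tumours, 3 titled Ctrl IgG (a control antibody) and 3 titled Anti PDL1, enter as the background in which anti-PDL1 was given without anti-CTLA4. Each library was the total RNA of 1 formalin-fixed, paraffin-embedded tumour of 1 mouse. The sources used here do not give the mouse strain, the way Myc was introduced, the age of the mice, or the antibody clones, doses and schedule.

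CTLA4 and PD-1, the product of Pdcd1, are inhibitory receptors of T cells. CTLA4 competes with the activating receptor CD28 for the ligands CD80 and CD86 on antigen-presenting cells, and acts mostly when T cells are primed. PD-1 is engaged in tissues by PDL1, the product of Cd274, and by PDL2, the product of Pdcd1lg2. Interferon gamma from T cells and NK cells raises Cd274, the chemokine gene Cxcl9 and the MHC genes in tumour cells and macrophages, so these genes are commonly read beside T cell genes when checkpoint antibodies are studied.

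Values are normalized barcode counts. A value of 20 is a floor: it stands for any level up to 45.0 in Anti CTLA4 1, 52.5 in Anti CTLA4 2 and 35.9 in Anti PDL1+CTLA4 2, and up to 20 in the other 3 libraries. Each anti-CTLA4 library had 113 to 210 genes at this floor and each combination library 84 to 154, and 533 genes lay above it in all 6. Recovered counts per library totalled 439149 to 601142 for anti-CTLA4 alone, and for the combination 457948 to 813701. The liver origin of the samples was visible in Apoe, Arg1, Fbp1 and Serpina1a, genes typical of hepatocytes, which were above the floor in all 6 tumours. Their levels differed widely between tumours: the mean log2 level of the hepatocyte list, 5 measured genes, was 13.96, 14.80 and 11.52 in Anti CTLA4 1, 2 and 3 and 11.75, 13.45 and 11.96 in the combination tumours. In bulk RNA, fewer cells of a type and less RNA per cell cannot be told apart.

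No single gene separated the combination from anti-CTLA4 alone beyond the spread between mice. In limma, fitted to log2(value + 1) of all 12 libraries, 0 of 770 genes had an adjusted p below 0.05 in either direction (0% higher, 0% lower), and the smallest adjusted p was 0.733. That value also belongs to each of the 16 genes labelled in the plot of all genes. At an unadjusted p below 0.05 there were 33 genes, 13 higher (1.69% of the panel) and 20 lower (2.6%) under the combination. The 3 tumours of 1 group lay wholly above the 3 of the other in 39 genes, counting floor values anywhere up to their limit: 14 were higher (1.82%) and 25 lower (3.25%) under the combination. For a typical gene (the median) the 95% confidence interval spanned 0.91 log2 units either way, so a difference under 1.88-fold lay within the error. Over all genes the median log2 difference, combination minus anti-CTLA4, was -0.05, with 293 genes higher, 416 lower and 61 at the floor in all 6 libraries, and over the 533 genes above the floor it was -0.23.

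**Figure D1:**
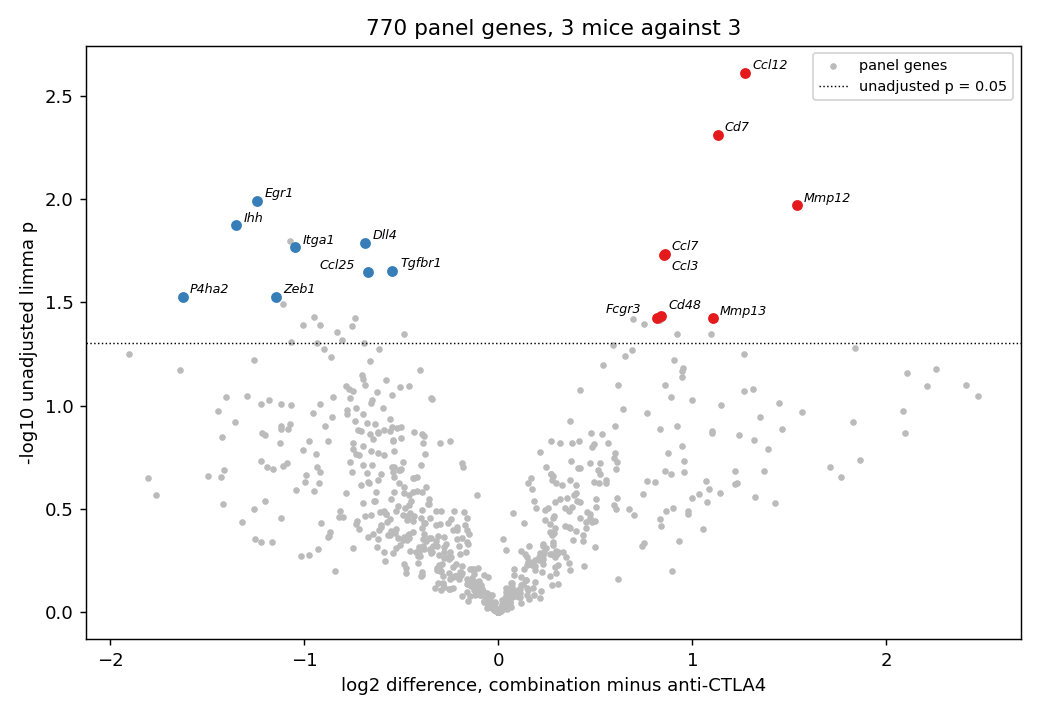
Log2 difference between the combination and anti-CTLA4 (x axis, log2 units) against the unadjusted limma p on a −log10 scale (y axis) for the panel genes, 1 point per gene. The labelled genes are the 8 with the smallest p in each direction among genes above 20 in at least 3 of the 6 libraries, and the dotted line marks an unadjusted p of 0.05; the smallest adjusted p of any gene was 0.733.

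The molecules that the antibodies bind were measured at modest levels. Cd274 was at 216, 89.2 and 124 normalized counts in Anti CTLA4 1, 2 and 3 and at 199.6, 174 and 172 in the combination tumours. The combination values lay within the anti-CTLA4 range, and the log2 difference was 0.44 (SE 0.555, 95% interval -0.81 to 1.69). Its receptor gene Pdcd1 was at the floor in Anti CTLA4 1 and 2 and in Anti PDL1+CTLA4 2, and at 29.0 in Anti CTLA4 3, 55.0 in Anti PDL1+CTLA4 1 and 35.5 in Anti PDL1+CTLA4 3. Pdcd1lg2 was listed at 58.5, 20 and 41.2 under anti-CTLA4 and at 33.0, 20 and 44.4 under the combination. Ctla4 was at the floor in the same 3 libraries as Pdcd1 and at 34.6, 32.3 and 39.5 in the others, in the same order. With so many values at the floor, the levels of both receptor genes could not be ordered between the groups.

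The ligands of CTLA4 and its activating counterpart also overlapped between the groups. Cd86 was at 283, 199 and 203 under anti-CTLA4 and at 230.4, 267 and 276 under the combination (log2 difference 0.19, SE 0.311). Cd80 was at 74.2, 52.5 and 45.9 against 50.6, 52.0 and 68.1, and Cd28 at 94.4, 105.0 and 39.3 against 55.0, 122 and 56.2. Of 26 measured checkpoint receptors and ligands, 9 were higher and 14 lower under the combination, and 3 were at the floor in all 6 libraries. The median log2 difference of the 26 was -0.02, with 0 past the test. Cd276, which encodes the B7 family member B7-H3, had the smallest p of them and was at 207, 123.4 and 541 under anti-CTLA4 and at 701, 385 and 507 under the combination (log2 difference 1.10, SE 0.673). Only Anti CTLA4 3 reached the combination range for Cd276, and its log2 difference was 0.62 without Anti CTLA4 2 and -0.07 without the 3 libraries whose normalization factor exceeds 2 (Anti CTLA4 1, Anti CTLA4 2 and Anti PDL1 2).

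The genes with the smallest p on the higher side included several with known roles in myeloid cells, and none passed the test. Mmp12, the macrophage elastase, was at 227, 139 and 436 normalized counts in the anti-CTLA4 tumours and at 1079, 532 and 592 in the combination tumours. All 3 combination values were above all 3 anti-CTLA4 values, with means of 267 ± 153 and 735 ± 299.97 (SD, n = 3 each). The log2 difference was 1.54 (SE 0.483, 95% interval 0.45 to 2.63). Mmp13, a collagenase, was at 54.0, 20 and 67.4 under anti-CTLA4 and at 142, 75.3 and 71.0 under the combination, without overlap and at least 1.57-fold higher when the floor value is raised to its limit. Fcgr3 and Fcgr4 encode activating receptors for antibody Fc parts on myeloid cells. Fcgr3 was at 94.4, 57.7 and 137 against 202, 125.5 and 163, an overlap by 1 tumour (log2 difference 0.81, SE 0.336). Fcgr4, named for the gap between its groups and not for a small p, was at 216, 110.2 and 165 against 339, 279.7 and 299 (log2 difference 0.95, SE 0.458). Cd48, a surface protein of leukocytes that binds CD244, was at 133, 65.6 and 157 against 203, 209.8 and 186 (log2 difference 0.84, SE 0.344). Neither Fcgr4 nor Cd48 overlapped between the groups.

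Of the monocyte-attracting chemokine genes named here, Ccl2 alone had groups that did not overlap within the floor limits. Ccl12 was at the floor in Anti CTLA4 1 and 2 and at 36.5 in Anti CTLA4 3, and stood at 82.9, 48.4 and 55.3 in the combination tumours. It had the smallest p of the panel, with a limma adjusted p of 0.733, but the floor in Anti CTLA4 2 could hide a value as high as 52.5, so overlap could not be judged, and the difference was at least 1.36-fold. Ccl7 was at 20, 20 and 21.5 against 45.5, 46.6 and 25.7, and Ccl3 at 20, 20 and 44.0 against 46.2, 46.6 and 51.3. Both were at least 1.02-fold higher, which is close to no difference. Ccl2, the main attractant of CCR2-bearing monocytes, lay above the floor throughout, at 101, 60.4 and 48.7 against 118, 151 and 123.3. Its log2 difference was 0.95 (SE 0.456). With 1 floor common to all libraries the log2 differences of Ccl12, Ccl7 and Ccl3 were 0.24, 0.00 and 0.00, while that of Ccl2 was 0.91.

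As groups, 16 of 23 measured macrophage genes were higher, 6 lower and 1 at the floor in all 6 libraries, with a median log2 difference of 0.36 against -0.05 over all genes. Single members ran from -1.30 to 1.54, so the lower members included a difference nearly as large as that of Mmp12. None passed the test, 3 had an unadjusted p below 0.05 and were higher, and 2 were higher without overlap. Over the panel the shares higher by these 2 measures were 1.69% and 1.82%. The mean log2 level of the macrophage list was 8.13, 7.50 and 7.51 in the anti-CTLA4 tumours and 7.93, 8.12 and 8.02 in the combination tumours, so Anti CTLA4 1 stood level with the highest combination tumour and the other anti-CTLA4 tumours below all 3. Of 12 monocyte chemokine genes and receptors 7 were higher, 4 lower and 1 at the floor in all 6 libraries, with a median of 0.11. The hepatocyte level was highest in Anti CTLA4 2, which was also the tumour with the lowest Mmp12, Fcgr3, Fcgr4 and Cd48 of the 6. With the hepatocyte level as a covariate, the log2 difference was 1.14 for Mmp12, 1.14 for Fcgr4, 1.19 for Ccl2 and 0.69 for Fcgr3. Without the 3 libraries of factor above 2, which leaves Anti CTLA4 3 alone on its side, they were 0.68, 0.88, 1.40 and 0.23.

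**Figure D2:**
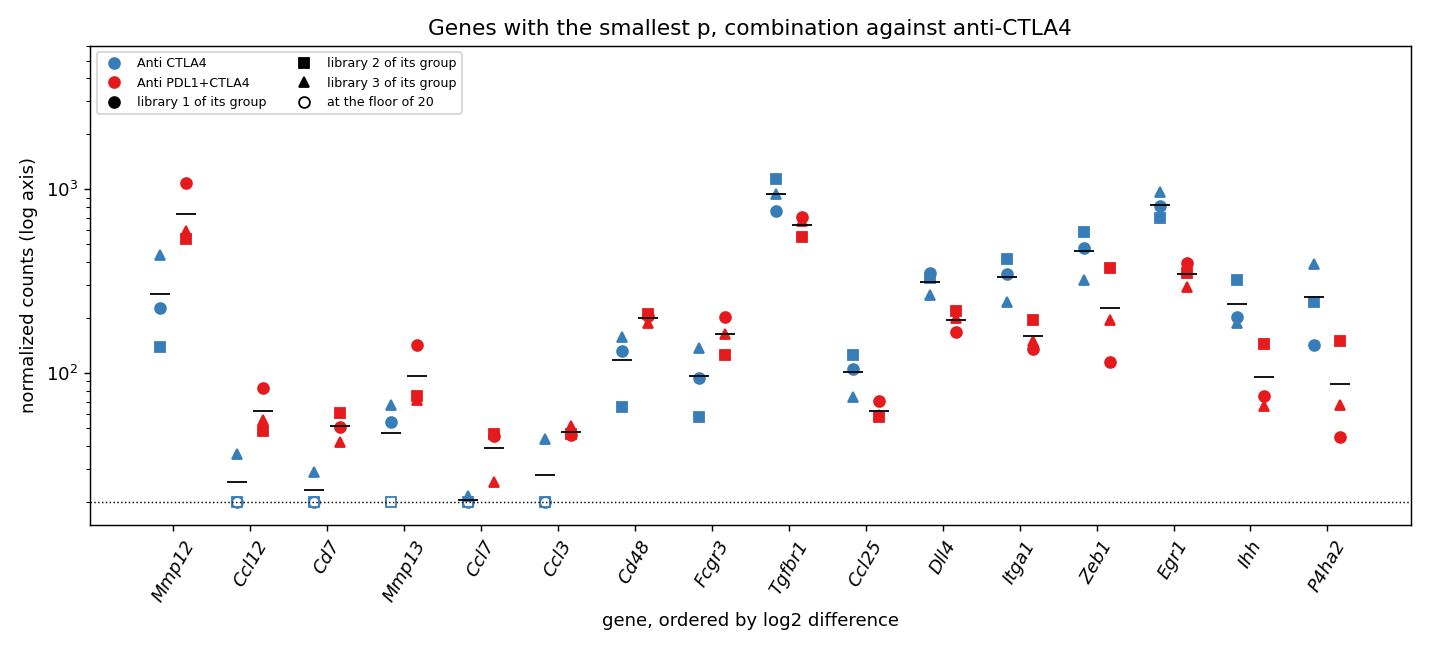
Normalized counts (log axis) of the 16 labelled genes, 8 in each direction, with 1 point per tumour for the combination and anti-CTLA4, a bar at each group's mean and open points at the floor of 20. Egr1, Ihh, Dll4 and Itga1 show 3 combination points below all anti-CTLA4 points, Mmp12 and Cd48 the reverse, and for Ccl12, Cd7, Mmp13, Ccl7 and Ccl3 the lowest anti-CTLA4 points are at the floor.

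Genes of MHC class II, the route by which macrophages, dendritic cells and B cells show peptides to CD4 T cells, mostly had higher values in the combination tumours, and none passed the test. H2-Aa, an alpha chain, was at 2626, 843 and 867 under anti-CTLA4 and at 3610.4, 3206 and 2187 under the combination (log2 difference 1.24, SE 0.764). Anti CTLA4 1 lay within the combination range and the other anti-CTLA4 tumours below it. Ctss, a protease that trims the invariant chain, was at 949, 541 and 553 against 1644, 1246 and 992, with no overlap but a gap of only 0.06 log2 units (log2 difference 0.95, SE 0.468). Of 9 measured class II genes 8 were higher, 0 lower and 1 was at the floor in all 6 libraries, with a median log2 difference of 0.67, and 4 of the 9 were at the floor in Anti CTLA4 2. The median was positive in all 13 alternatives computed for it, from 0.37 to 1.21.

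MHC class I genes, which serve presentation to CD8 T cells, went the other way in sign. Of 17 measured, 2 were higher, 14 lower and 1 at the floor in all 6 libraries, with a median of -0.33 and 0 past the test. Tapbpl, a peptide editor of class I, was at 303, 396 and 112 under anti-CTLA4 and at 90.2, 158 and 102 under the combination (log2 difference -1.07, SE 0.582, and 0.01 without the 3 libraries of factor above 2). H2-Q1, a nonclassical class I gene, was at 60.7, 94.5 and 20 against 20, 46.6 and 31.6. In both genes Anti CTLA4 1 and 2 were the highest tumours and Anti CTLA4 3 lay in or near the combination range. The class I list as a whole repeated that order, at 9.86, 9.59 and 8.13 mean log2 units against 8.48, 9.45 and 8.42, and 15 of its 17 genes were highest of the 6 tumours in Anti CTLA4 1 or 2. The hepatocyte level was highest in the same tumours, and with it as a covariate the list's median log2 difference was 0.27 in place of -0.33.

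As lists, interferon response genes did not separate the groups. Ifng itself was at the floor in all 6 tumours. Cxcl9, the T cell attractant induced by interferon gamma, was at 283, 78.7 and 113 under anti-CTLA4 and at 304, 201 and 198 under the combination (log2 difference 0.75, SE 0.977). Icam1, an adhesion molecule that binds leukocyte integrins, was at 301, 184 and 286 against 539, 262 and 478, with 1 combination tumour inside the anti-CTLA4 range (log2 difference 0.69, SE 0.288). Ifngr2, a chain of the interferon gamma receptor, was at 1452, 1514 and 1152 against 1156, 930.5 and 1141 (log2 difference -0.35, SE 0.185). Across 23 interferon-gamma response genes 9 were higher, 12 lower and 2 at the floor in all 6 libraries, with a median of -0.20. None passed the test. At an unadjusted limma p below 0.05, 1 of them was higher (1.69% of the panel), and 1 was lower without overlap (3.25% of the panel). Across 26 type I interferon response genes 7 were higher and 19 lower, with a median of -0.16. Ifit2, an antiviral effector, was at 171, 108 and 113 against 244, 142 and 215 (log2 difference 0.61, SE 0.531), and the receptor gene Ifnar1 at 1463, 2331 and 1092 against 956, 1345 and 939 (log2 difference -0.54, SE 0.343). With the hepatocyte level as a covariate the medians of both interferon lists were 0.15 and 0.32, so their sign depended on that adjustment.

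Many T cell and cytotoxic genes were near the floor in both groups. Cd8a, the alpha chain of the CD8 coreceptor, was at the floor in 5 of the 6 tumours and at 26.6 in Anti PDL1+CTLA4 3. Cd7, a surface protein of T and NK cells, was at 20, 20 and 29.0 under anti-CTLA4 and at 50.6, 61.0 and 42.4 under the combination. As listed, all 3 combination values were higher, and the difference was at least 1.23-fold. Cd3g, a chain of the T cell receptor complex, was at 60.7, 20 and 38.4 against 73.4, 62.8 and 63.2, without overlap and at least 1.33-fold higher. Zap70, the kinase that the receptor recruits, was at 20, 20 and 24.3 against 37.4, 43.0 and 22.7, and Ctsw, a protease of cytotoxic lymphocytes, at 20, 20 and 39.3 against 41.8, 43.0 and 35.5. In these 4 genes Anti CTLA4 2, the library with the highest floor limit, was at the floor. Over the list of 24 T cell genes 10 were higher, 12 lower and 2 at the floor in all 6 libraries (median -0.01). Over 17 cytotoxic and NK genes 7 were higher, 6 lower and 4 at the floor in all 6 libraries (median 0.00). A change in genes at the floor throughout could not be judged, and their equal listed values enter these medians. Neither list had a gene past the test, and 14 of the 24 and 12 of the 17 were at the floor in Anti CTLA4 2. The cytotoxic and NK list also holds Itga1, described below, which was lower under the combination (log2 difference -1.05). In that list it alone had an unadjusted limma p below 0.05 and it alone did not overlap. Over the panel, 2.6% of genes were lower at that p and 3.25% were lower without overlap.

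On the lower side the gene with the smallest p was Egr1, and no gene passed the test. Egr1, an immediate early transcription factor induced through the MAPK cascade, was at 809, 696 and 963 normalized counts under anti-CTLA4 and at 398, 348 and 293 under the combination. The groups were 0.80 log2 units apart at their nearest points, the widest such gap of any gene above the floor in all 6 tumours. Its log2 difference was -1.24 (SE 0.387, 95% interval -2.12 to -0.37), and it was -1.13 with the hepatocyte level as a covariate and -1.48 without the 3 libraries of factor above 2. Pik3ca, the catalytic subunit of PI3 kinase, was at 674, 1016 and 526 against 372, 484 and 353, also without overlap (log2 difference -0.83, SE 0.358). Kit, a receptor tyrosine kinase of mast cells and progenitors, was at 115, 115 and 117 against 86.6, 68.1 and 84.9, the anti-CTLA4 tumours lying within 0.03 log2 units of each other (log2 difference -0.54, SE 0.357). Of 25 PI3K, MAPK and receptor kinase genes 8 were higher, 16 lower and 1 at the floor in all 6 libraries, with a median of -0.31. None passed the test, while 3 had an unadjusted p below 0.05 and 3 did not overlap, all lower. Over the panel, 2.6% of genes were lower at that p and 3.25% were lower without overlap.

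Endothelial genes were lower in 14 of 21 cases and higher in 7, with log2 differences from -1.43 to 0.96 and 0 past the test. Their median was -0.39, against -0.05 over all genes and -0.23 over the 533 genes above the floor. Over the panel, 416 of 770 genes were lower. At an unadjusted limma p below 0.05, 2 endothelial genes were lower and 1 was higher, and 3 were lower without overlap. The panel shares for these were 2.6%, 1.69% and 3.25%. Dll4, a Notch ligand of sprouting vessels, was at 351, 328 and 265 under anti-CTLA4 and at 167, 219 and 198 under the combination (log2 difference -0.69, SE 0.235). Tie1, an endothelial receptor kinase, was at 357, 417 and 257 against 131, 206 and 195 (log2 difference -0.95, SE 0.390). Neither gene overlapped between the groups. In the Ctrl IgG tumours Dll4 was at 129, 168 and 162, at or below the combination, and Tie1 at 199.9, 208 and 371, across the range of both groups. The endothelial list as a whole was at 8.08, 8.29 and 7.77 mean log2 units under anti-CTLA4 and at 7.57, 7.93 and 7.69 under the combination, an overlap by 1 tumour on each side. The anti-CTLA4 tumours with the higher endothelial levels are those with the higher hepatocyte levels. With the hepatocyte level as a covariate the list's median was -0.04, and the log2 differences of Dll4 and Tie1 were -0.54 and -0.67.

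Other genes without overlap on the lower side came from several pathways. Ihh, the hedgehog ligand Indian hedgehog, was at 202, 320.2 and 186 under anti-CTLA4 and at 74.8, 143 and 66.1 under the combination (log2 difference -1.35, SE 0.443). Itga1, the collagen-binding integrin chain found on stromal cells and liver-resident lymphocytes, was at 344, 417 and 242 against 136, 194 and 149 (log2 difference -1.05, SE 0.361). Tgfbr1, the type I receptor of TGF-beta, was at 762, 1136 and 939 against 704, 552 and 668 (log2 difference -0.55, SE 0.200). In each of these genes the combination mean lay near the Ctrl IgG mean, which was 92.5 ± 3.40 for Ihh, 177 ± 29.1 for Itga1 and 646 ± 43.1 for Tgfbr1 (SD, n = 3). For Ihh no single combination tumour lay within the Ctrl IgG range of 89.42 to 96.15. Ccl25, a chemokine for CCR9-bearing lymphocytes, was at 106, 126 and 74.0 against 70.4, 57.4 and 59.2, with a gap of 0.07 log2 units. P4ha2, a collagen prolyl hydroxylase induced by hypoxia, was at 142, 244 and 391 against 44.8, 149 and 67.1, and Zeb1, a transcription factor of mesenchymal cells, at 481, 583 and 321 against 114, 371 and 193. Both had Anti PDL1+CTLA4 2 inside the anti-CTLA4 range.

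Innate signalling genes showed the same mixture. Ticam1, the TRIF adaptor of TLR3 and TLR4, was at 353, 294 and 226 under anti-CTLA4 and at 162, 181 and 188 under the combination, without overlap (log2 difference -0.69, SE 0.307). Ikbkb, a kinase that activates NF-kB, was at 614, 814 and 452 against 265, 475 and 265, with Anti PDL1+CTLA4 2 inside the anti-CTLA4 range (log2 difference -0.92, SE 0.386). Tlr8, an endosomal RNA receptor of myeloid cells, went the other way, at 101, 105 and 98.3 against 127, 120.1 and 149 (log2 difference 0.37, SE 0.215, no overlap). Of 32 innate sensing and NF-kB genes 7 were higher, 24 lower and 1 at the floor in all 6 libraries, with a median of -0.16. Cxcl1, a neutrophil attractant downstream of NF-kB, was at 780.1, 1488 and 539 under anti-CTLA4 and at 224, 362 and 252 under the combination, with 0.57 log2 units between the groups. Its log2 difference was -1.64 (SE 0.794), the hepatocyte covariate moved it to -0.92, and among Ctrl IgG tumours it was at 283, 146 and 232. Of 17 neutrophil genes 4 were higher, 11 lower and 2 at the floor in all 6 libraries (median -0.16), and 0 passed the test. Fcgr3, described above, is also in that list and went the other way from Cxcl1 (log2 difference 0.81). It alone of the 17 had an unadjusted limma p below 0.05, where 1.69% of the panel was higher. Cxcl1 alone did not overlap, against 3.25% of the panel lower without overlap.

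The 3 anti-CTLA4 tumours differed from each other more than the combination tumours did in most genes. Over the 533 genes above the floor in all 6 libraries, the range over 3 tumours had a median of 1.20 log2 units under anti-CTLA4 and 0.69 under the combination. The range exceeded 1 log2 unit in 323 genes (60.6%) under anti-CTLA4 and in 159 (29.8%) under the combination, and 432 genes (81.1%) had the wider range under anti-CTLA4. The corresponding shares were 7.3% under Ctrl IgG and 70.0% under Anti PDL1, so a wide spread was found in both groups given a single checkpoint antibody. Anti CTLA4 3 was the lowest of its group in 350 of these genes and the highest in 110. Pearson correlations of log2 levels across these genes ran from 0.749 to 0.939 within anti-CTLA4, from 0.91 to 0.985 within the combination and from 0.74 to 0.965 between the groups; genes share the library and are not independent replicates. These ranges describe 3 mice per group, and a difference in spread was not tested.

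**Figure D3:**
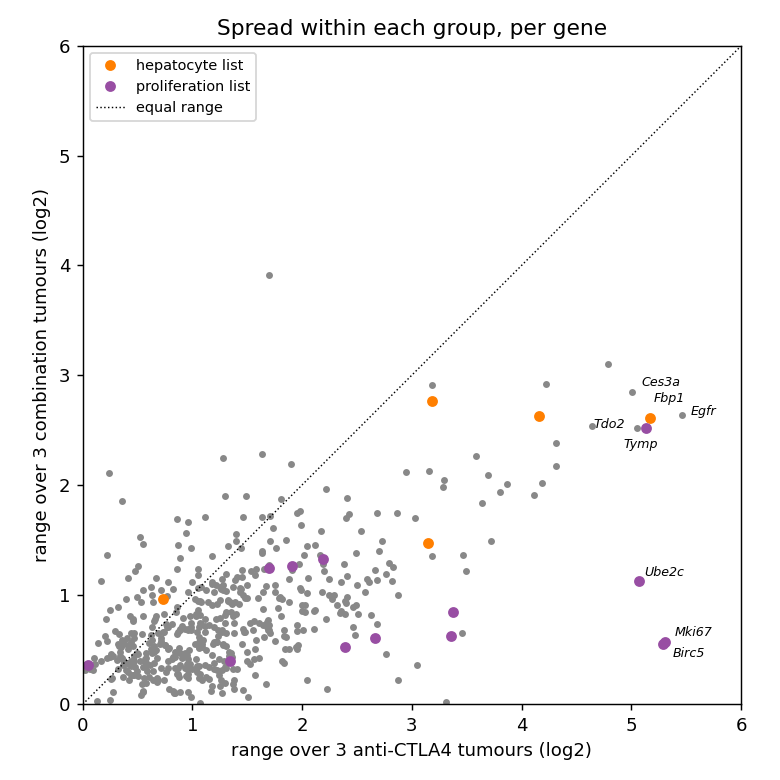
Range over the 3 anti-CTLA4 tumours (x axis, log2 units) against the range over the 3 combination tumours (y axis, log2 units) for the 533 genes above the floor in all 6, 1 point per gene, with the hepatocyte and proliferation lists coloured and the 8 widest anti-CTLA4 ranges labelled. Of the points, 432 lie below the dotted line of equal range.

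Liver function genes and cell division genes carried the widest ranges, in opposite directions. Fbp1, an enzyme of gluconeogenesis, was at 20724, 53252 and 1475 normalized counts in Anti CTLA4 1, 2 and 3 and at 2263, 13853 and 3832 in the combination tumours. Tdo2, which starts tryptophan breakdown in hepatocytes, was at 5051, 8349 and 251 against 622, 3575 and 829, and Ces3a, a liver carboxylesterase, at 13205, 21425 and 663 against 1055, 7625 and 1837. Egfr, the EGF receptor, abundant in normal hepatocytes, had the widest range of all, 5.46 log2 units, with 6623, 12042 and 272 against 397, 2485 and 561. In each, Anti CTLA4 2 was the highest tumour of the 6 and Anti CTLA4 3 the lowest. Arg1 (log2 difference -1.50, SE 1.14) and Serpina1a (-1.81, SE 1.39), an arginase and a protease inhibitor secreted by the liver, had Anti CTLA4 2 highest too. Without the 3 libraries of factor above 2 their log2 differences turned to 0.31 and 0.65, and those of Fbp1, Tdo2, Ces3a and Egfr to 1.74, 2.28, 1.89 and 1.59. Of the 5 hepatocyte genes 1 was higher and 4 lower under the combination, with a median log2 difference of -1.25. That median ran from -2.40 to -0.16 with each of the 6 libraries left out in turn. Over 13 alternatives it ran from -2.40 to 0.10. These include the hepatocyte level as a covariate, which is the mean of the same 5 genes and so cannot test them. They do not include the fit without the 3 libraries of factor above 2.

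Cell division genes gave the mirror image. Mki67, the proliferation antigen Ki-67, was at 1214, 57.7 and 2327 under anti-CTLA4 and at 3770.3, 2612 and 2539 under the combination. The groups did not overlap, the log2 difference was 2.41 (SE 1.22, 95% interval -0.34 to 5.17), and 1 tumour decided its size: without Anti CTLA4 2 it was 0.80. Birc5, the apoptosis inhibitor survivin, was at 3383, 171 and 6692 against 5942, 4206 and 6147, and Ube2c, an enzyme of mitotic protein breakdown, at 1245, 134 and 4541 against 5581, 2565 and 4157. Both had Anti CTLA4 3 within or above the combination range and Anti CTLA4 2 far below it, and their log2 differences turned to -0.32 and -0.22 without the 3 libraries of factor above 2, from 1.77 and 2.10. Anln, a scaffold of cell cleavage, was at 80.9, 20 and 164 against 337, 156 and 243, and Hells, a chromatin remodeller, at 130.4, 20 and 373 against 751, 258 and 576. Of 24 measured proliferation genes 22 were higher and 2 lower, with a median log2 difference of 1.27 and 0 past the test. That median was 0.48 without Anti CTLA4 2, 2.10 without Anti CTLA4 3 and 0.46 with the hepatocyte level as a covariate. In 20 of the 24 Anti CTLA4 2 had the lowest listed value of the 6 tumours, with 10 of the 24 at the floor there. Tymp, a thymidine-degrading enzyme kept in that list, was one of the lower ones, at 1347, 2848 and 80.5 against 152, 878 and 205. Msh6, a mismatch repair gene, was at 778, 391 and 822 against 1073, 923 and 882, without overlap (log2 difference 0.60, SE 0.357), and 14 of 17 DNA repair genes were higher (median 0.42).

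The mean log2 level of the proliferation list was 7.82, 6.0 and 8.66 in Anti CTLA4 1, 2 and 3 and 8.92, 8.44 and 8.76 in the combination tumours. Anti CTLA4 3 was thus within the combination range and close to the Ctrl IgG tumours, at 8.71, 8.72 and 8.54. The order of the anti-CTLA4 tumours in proliferation was the reverse of their order in hepatocyte level. With the hepatocyte level as a covariate the log2 difference of Mki67 was 1.45, and without the 3 libraries of factor above 2 it was 0.33. Myc, the oncogene of the model, was at 171, 215 and 119.8 under anti-CTLA4 and at 129.9, 181 and 146 under the combination (log2 difference -0.12, SE 0.532, and 0.33 without the 3 libraries of factor above 2). The sources used here do not say whether the probe reads the introduced gene.

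**Figure D4:**
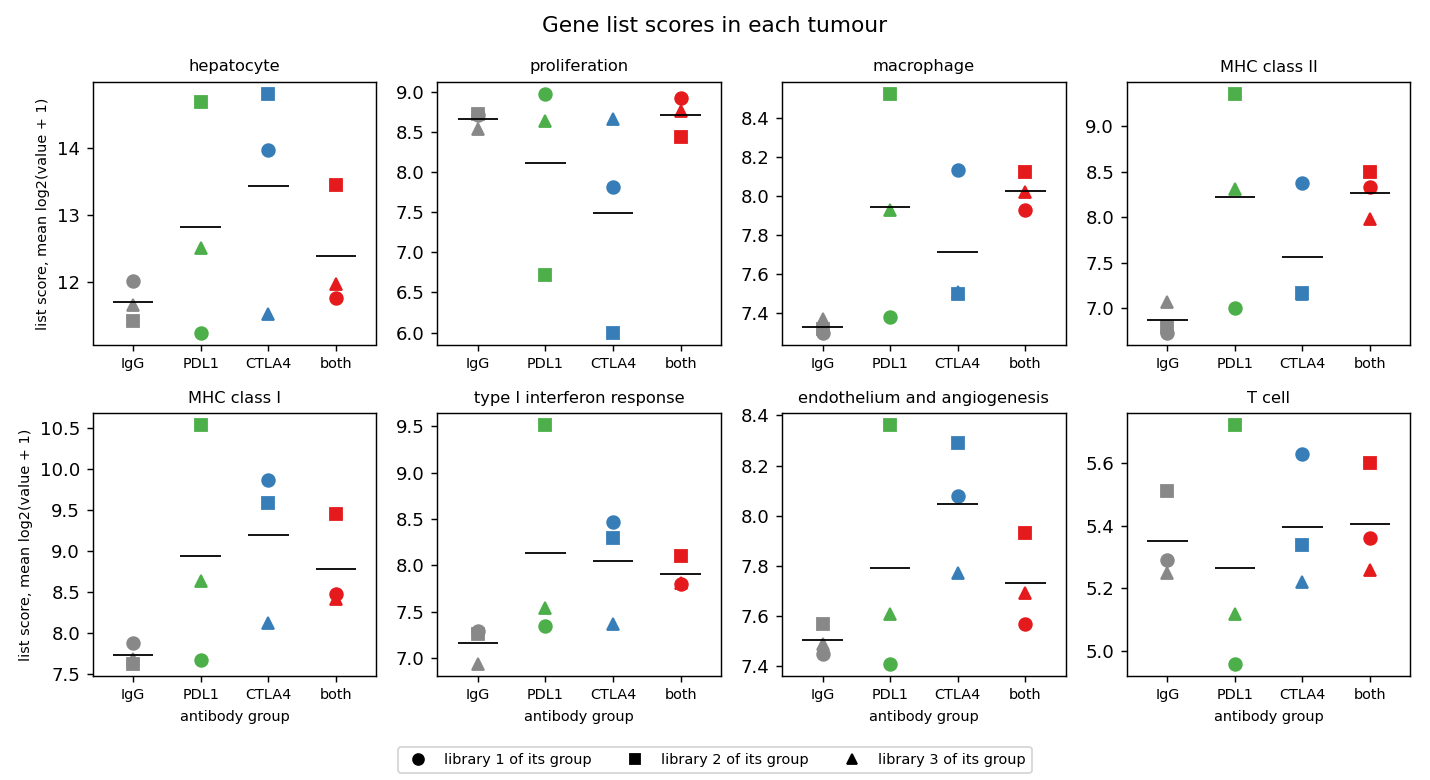
Mean log2 level of 8 gene lists in each of the 12 tumours (y axis, log2 units), 1 point per tumour, by treatment group. In the hepatocyte panel Anti CTLA4 1 and 2 stand at 13.96 and 14.80, in the proliferation panel Anti CTLA4 2 stands lowest at 6.0, and the combination tumours lie closer together than the anti-CTLA4 tumours in both.

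Whether anti-PDL1 acted differently on top of anti-CTLA4 than on its own was tested as a difference of differences, (combination minus anti-CTLA4) minus (Anti PDL1 minus Ctrl IgG), which share no library. For Mmp12 the difference was 1.54 with anti-CTLA4 and 0.87 without, and for Fcgr4 it was 0.95 and 1.01. These effects differed by 0.67 (SE 0.683) and -0.06 (SE 0.648) log2 units, which did not pass the test (limma adjusted p = 0.559 and 0.984). For H2-Aa the difference was 1.24 with anti-CTLA4 and 2.78 without, and for Ctss 0.95 and 1.94, again short of the test (adjusted p = 0.435 and 0.416 in limma). Of the genes lower under the combination, 3 examples had the opposite sign without anti-CTLA4: the difference of Egr1 was -1.24 against 0.32, that of Ihh -1.35 against 0.70 and that of Dll4 -0.69 against 0.25 log2 units. Their differences of differences were -1.57 (SE 0.547), -2.06 (SE 0.627) and -0.94 (SE 0.332), with limma adjusted p of 0.345, 0.266 and 0.345. Ccl3 came closest among the leading genes, at 0.86 against -1.15 (limma adjusted p = 0.0614), with Anti PDL1 2 and 2 anti-CTLA4 tumours at the floor. In all, 10 genes had a positive difference of differences past the threshold (1.3%) and 0 a negative one (0%), and 106 had an unadjusted p below 0.05. All 10 had Ctrl IgG values of 27.6 to 73.7 and lay at the floor in 6 to 9 of the 9 treated tumours, and with a common floor 0 genes passed.

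The remaining lists gave counts without a gene past the test. Under the combination, 6 of 13 dendritic cell genes were higher and 5 lower (median 0.00), 5 of 11 regulatory T cell genes higher and 3 lower (median 0.00), and 2 of 10 B and plasma cell genes higher and 4 lower (median 0.00). Only 7 of these 13, 4 of the 11 and 1 of the 10 lay above the floor in all 6 libraries. The medians of 0.00 fell on genes at the floor throughout and do not show equal expression. Of the mast cell and Wnt genes given next, 2 of 6 and 6 of 18 lay above the floor in all 6. Mast cell genes were higher in 2 and lower in 3 of 6 (median -0.17), and T cell attracting chemokines higher in 6 and lower in 8 of 14 (median -0.28). Fibroblast and matrix genes were higher in 11 and lower in 10 of 21 (median 0.01), TGF-beta and BMP genes higher in 5 and lower in 6 of 12 (median -0.04), and Wnt genes higher in 5 and lower in 10 of 18 (median -0.03). Glycolysis and hypoxia genes were higher in 8 and lower in 13 of 21 (median -0.14), and amino acid and lipid metabolism genes higher in 6 and lower in 8 of 14 (median -0.19). Complement genes were higher in 4 and lower in 1 of 5 (median 0.27), and apoptosis and p53 genes higher in 8 and lower in 12 of 20 (median -0.39). Housekeeping genes were higher in 9 and lower in 10 of 19 (median -0.04), with log2 differences of single members from -0.78 to 1.35. Their mean log2 level ran only from 9.0 to 9.03 over the 6 tumours. The sources do not say whether values were scaled to such genes, so this narrow range is not read as stable expression.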

How the data were processed

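Tumour RNA was measured with the NanoString nCounter mouse IO360 panel, per the labels. The deposited signal values are normalized counts in which low values were replaced by a floor of 20; the sources used here do not state the software or normalization method of the authors. Above the floor, at least 99.84% of each library's values were whole multiples of 1 step (within 0.0075), which gives its factor (0.734 to 2.62 in the 6 libraries compared), its recovered counts and its floor limit (20 times the factor where that exceeds 20). The 14 control probes were left out.

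For the tests, log2(value + 1) of all 12 libraries entered limma 3.58.1 (R 4.3.3) with group means, a trend of the variance on the level and 8 residual degrees of freedom. Tests were two-sided, with Benjamini-Hochberg adjustment over 770 genes. Log2 differences of listed values are no estimate for genes with floor values: the pseudocount shrinks them, while the floor can make them larger or smaller than the true change. Folds written "at least" raise each floor value to its limit. P-values measure the spread between 3 mice per group; an exact permutation test of 3 against 3 cannot go below 0.1. The fit was also run on simulated data with independent genes, 1 spread per gene in all groups and no floor, unlike the real values. There it recovered 41.3% of changes of 1 log2 unit, and 4.6% of its calls were false. Because of these differences, the simulation cannot tell how many real changes were missed.

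The comparison and the 29 gene lists (457 genes measured) were chosen with earlier results of these data known. The hepatocyte list keeps 1 measured gene that is not reported here by itself. Named genes are any called gene, the 8 smallest p per direction among genes above 20 in at least 3 of the 6 libraries, up to 8 per direction with the widest gap between non-overlapping groups, the 8 widest ranges under anti-CTLA4, 2 genes of each of 15 lists and 12 fixed genes. Panel names were matched to RefSeq symbols of GRCm38.p6 (764) or their synonyms (6).

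Alternatives covered the pseudocount, low-value filter, floor, scaling, variance model, samples in the fit, replicate block, a hepatocyte covariate and each library left out. The fit without libraries of factor above 2, and the covariate in a fit of 2 groups, were added after seeing the data.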

Additional observations from a re-analysis of the deposited data

Results flagged for a closer look

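In 10 genes the effect of adding anti-PDL1 differed, by the limma test of the difference itself, between tumours given anti-CTLA4 and tumours not given it. The difference of effects was 0.77 log2 units for the cytokine gene Il6 (adjusted p = 2.46e-05), 0.87 for Il17a (adjusted p = 0.000113), 0.5 for the plasma cell receptor gene Tnfrsf17 (adjusted p = 0.000343) and 0.77 for Pnoc (adjusted p = 0.000349). It was 1.49 for the Wnt inhibitor gene Dkk1 (adjusted p = 0.00145), 1.14 for the CD27 ligand gene Cd70 (adjusted p = 0.0135) and 1.68 for Fam124b (adjusted p = 0.0222). It was 0.99 for Jup, which encodes plakoglobin (adjusted p = 0.0222), 0.82 for Ifng (adjusted p = 0.0222) and 0.74 for Tcl1 (adjusted p = 0.0245).

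Il6, Il17a, Tnfrsf17, Pnoc, Jup, Ifng and Tcl1 were listed at 20 in all 9 treated tumours and at 27.6 to 47.2 in the Ctrl IgG tumours, so for these 7 genes the combination and anti-CTLA4 had the same listed value and the difference came from the step between Ctrl IgG and Anti PDL1. The fit takes floor values as exact, which leaves almost no spread. Dkk1 was at the floor in 7, Cd70 in 8 and Fam124b in 6 of the 9 treated tumours, with highest treated values of 21.5, 25.8 and 37.7. With a common floor the differences of effects were 0.19, 0.05 and 0.08 for these 3 genes and 0 for the other 7.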

How the results depend on the processing

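The count of genes that separated the combination from anti-CTLA4 was 0 in 23 of 26 alternatives. Sample quality weights gave 250 calls, 56 higher and 194 lower, but the estimation of these weights did not converge. Leaving out each library in turn gave 0 to 1 calls, the single call being Wnt2 without Anti CTLA4 3 (log2 difference -1.61, limma adjusted p = 0.000218). Without the 3 libraries of factor above 2 there were 4, Nectin2 at 0.94 and Itga2, Mb21d1 and Olr1 at -0.39, -0.59 and -0.59; 1 anti-CTLA4 library then remains and is assumed to vary like the other groups. These 5 genes were picked after their values were seen. The titles do not say whether the replicate numbers pair the mice. Between same-numbered anti-CTLA4 and combination libraries the r of deviations was -0.37, 0.67 and 0.51, which cannot decide it with 3 mice per group. The replicate block gave 0 calls, with 69 genes at an unadjusted limma p below 0.05. Tests on recovered counts, planned as alternatives, were not run because the values are normalized and floored.

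The 10 genes of the difference of differences became 0 with the filter at 50, with genes above the floor in all 6 libraries, with a common floor and with median scaling, 1 with quantile normalization, 6 with the hepatocyte covariate, 9 with the replicate block and 337 with sample quality weights. Leaving out each library gave 5 to 24.

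Of 1564 pairs of a named gene and an alternative, 46 changed sign and 33 became calls, all 33 with sample quality weights. Without the libraries of factor above 2, log2 differences changed sign to 0.31 (Arg1), -0.32 (Birc5), -0.07 (Cd276), 0.86 (Cd28), 1.89 (Ces3a), -0.23 (Ctla4), 1.59 (Egfr), 1.74 (Fbp1), 0.60 (H2-Q1), 0.33 (Myc), 0.65 (Serpina1a), 0.01 (Tapbpl), 2.28 (Tdo2), 1.89 (Tymp) and -0.22 (Ube2c). With the hepatocyte covariate they were 0.42 (Cd28), 0.41 (Ces3a), 0.36 (Fbp1), 0.33 (Myc), 0.88 (Tdo2) and 0.39 (Tymp), and in a fit of only the 6 libraries 0.51, 0.42, 0.35, 0.14, 0.78 and 0.45, with Ctla4 at -0.03 and H2-Q1 at 0.02. Fbp1 is itself part of that covariate, so its values there are partly set by construction. Cd28 was at 0.10 with median and 0.06 with quantile scaling. Cd80 was at -0.00 with a pseudocount of 10, -0.04 with a common floor and -0.15 with weights, which put Cd86 at -0.01. With each library left out, Cd28 ran from -0.46 to 0.24, Cd80 from -0.14 to 0.20, Myc from -0.34 to 0.08, Pdcd1lg2 from -0.65 to 0.10 and Tdo2 from -2.40 to 0.12. The cause of these changes was not tested. The median log2 difference over all genes was 0.07 after median scaling, against -0.05.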
